A study of Mus musculus with 9 samples.

Results

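Interferon-stimulated genes were followed in cells sorted from mouse embryoid bodies at days 4, 7 and 21 of differentiation, with 3 arrays per day. The set was a list of 46 genes of the interferon response, and 42 of them had a probe set whose only gene symbol was the listed gene, out of 22180 genes measured in that way. Where a gene had several such probe sets, the brightest was used. Gbp2, Oas1a and Dtx3l lay only on probe sets shared with another symbol, no probe set carried Ifi44 in the annotation used here, and these 4 genes were not analysed.

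All 9 samples came from mouse embryonic stem cells with a transgene in which the promoter of Afp, the alpha-fetoprotein gene, drives green fluorescent protein. The cells were grown as embryoid bodies in serum-containing medium with transferrin and ascorbic acid, on gelatin, and cells positive for the reporter were isolated by flow cytometry. The groups differed only in the labelled time, 4, 7 or 21 days, and no interferon or other inducer is named for any of them. The cells share a reporter and not a fixed identity, so a change in each cell and a change in which cells carry the reporter cannot be told apart. Fewer cells of a type and less RNA per cell cannot be told apart either. Afp itself, the gene behind the sort, had a log2 signal of 5.72 ± 0.18 (mean ± SD, n = 3 arrays) at day 4, which was not above background, against 10.60 ± 0.07 at day 7 and 13.07 ± 0.11 at day 21.

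Values are log2 signals, so a difference of 1 is a doubling of array signal. Background was taken from 1105 olfactory receptor genes, which most cells do not transcribe. Per array, the 95th percentile of these genes was 5.91 at the lowest and 6.19 at the highest. A gene is called above background on a day when its mean exceeds that percentile on each array of the day. Where 1 of the levels compared is below background, the fold in array signal can understate the fold in RNA. A gene is said to have risen or fallen where limma's test, adjusted by Benjamini-Hochberg over 22180 genes, gave p under 0.05. Intervals are 95% intervals from the same model.

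Type I interferons bind a receptor made of the Ifnar1 and Ifnar2 proteins, whose kinases activate Stat2. With Irf9 it forms part of a factor that binds interferon-stimulated response elements in promoters and switches on a common programme of antiviral genes. The products detect viral RNA, degrade it, block its translation, keep viruses from fusing with membranes, or restrain the pathway itself. Irf1 acts on overlapping promoters and is also induced by type II interferon. Embryonic stem cells are known for a weak interferon response that strengthens as they differentiate, and they express part of this programme without stimulus.

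Promoter stretches are shown first because genes that carry the same regulatory motif took different courses. Promoter windows of RefSeq (mouse build GRCm38.p6), from 250 bases before to 50 bases after each start, were matched by symbol for 31 of the 42 genes. Both strands were searched for the core of the interferon-stimulated response element, GAAANNGAAA, whose reverse complement is TTTCNNTTTC. Matches were found for 15 of the 31 genes (48.4%), against 3.99% of all 27025 genes with a window and 3.44% of all 32851 windows. The response element core stood in 8 of 15 genes that fell at day 7 and in 7 of 16 that were not called then. The 11 genes without a window are missing from these counts. Of them, Ifi27, Zbp1, Rtp4, Usp18, Parp14, Mx2, Parp9 and Oas2 fell at day 7, and Mx1, Gbp6 and Dhx58 were not called. A match is not a bound site, and the absence of a match says only that these letters are not in the window.

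The stretches below run 5′ to 3′ on each gene's strand, with the response element core or its reverse complement in capitals; overlapping matches merge. They are chr4:156200850-156200921 (minus strand) for Isg15, chr19:34640760-34640838 (plus) for Ifit1, chr3:142559974-142560039 (plus) for Gbp3, chr3:142530258-142530317 (plus) for Gbp7, chr19:34583348-34583441 (plus) for Ifit3 and chr7:140955973-140956032 (minus) for Ifitm2. All lie upstream of the annotated start. Isg15, Ifit1, Gbp3 and Gbp7 fell at day 7, while Ifit3 and Ifitm2 carry the same letters and were called in no comparison. They are examples of both courses, and other genes of the set also had matches.
Isg15: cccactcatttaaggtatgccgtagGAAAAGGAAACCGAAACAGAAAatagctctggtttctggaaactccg
Ifit1: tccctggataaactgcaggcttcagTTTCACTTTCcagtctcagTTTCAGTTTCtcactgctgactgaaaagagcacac
Gbp3: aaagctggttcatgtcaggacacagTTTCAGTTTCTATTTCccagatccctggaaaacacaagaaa
Gbp7: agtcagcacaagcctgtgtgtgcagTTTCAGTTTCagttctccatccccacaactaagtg
Ifit3: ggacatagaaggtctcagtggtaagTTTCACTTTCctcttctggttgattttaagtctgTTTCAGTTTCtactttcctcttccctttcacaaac
Ifitm2: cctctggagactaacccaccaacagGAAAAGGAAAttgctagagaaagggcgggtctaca

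Many genes of the set were lowest at day 7, and they regained their day 4 level by day 21 to different degrees. Between days 4 and 7, 23 of 42 genes fell, where 6.47% of all genes fell, and 0 rose, where 6.98% of all genes rose. Bst2 alone was higher with an unadjusted p under 0.05 in limma, and a limma fit with an intensity trend and robust prior also called 0 higher. The median log2 difference was -0.61 over the 42 genes and -0.01 over all genes, and 39 of the 42 differences were negative. From day 7 to day 21, 28 of 42 rose, against 12.4% of all genes, and 1 (Samhd1) fell, against 10.7% of all genes. Here the median was 0.80 over the set and -0.04 over all genes. Both changes, a fall and then a rise, were called for 20 of the 42 genes (47.6%) and for 2.37% of all genes. The intervals share the day 7 arrays, so the 2 calls are not independent.

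The mean signal over the 42 genes was 7.60 to 7.74 on the day 4 arrays, 6.56 to 6.61 on the day 7 arrays and 7.65 to 7.75 on the day 21 arrays. The day 7 arrays lay apart from the rest, and days 4 and 21 overlapped. Of the 42, 35 were above background at day 4, 22 at day 7 and 36 at day 21. All 23 that fell were above background at day 4, and 11 of them were below it at day 7. The net change over the whole period was mixed: 12 of 42 genes were higher at day 21 than at day 4, against 15.0% of all genes, and 7 were lower, against 14.1%. The median net difference was 0.11 over the set and -0.03 over all genes. With each array centred on its median, which moved the median of all genes by 0.11 between days 4 and 21, the split was 11 higher and 11 lower. Over all genes that setting called 12.1% higher and 20.8% lower, so the shift was not particular to the set. The same setting also ended the calls of Ifnar2, Irf3 and Trim25 between days 7 and 21.

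**Figure D1:**
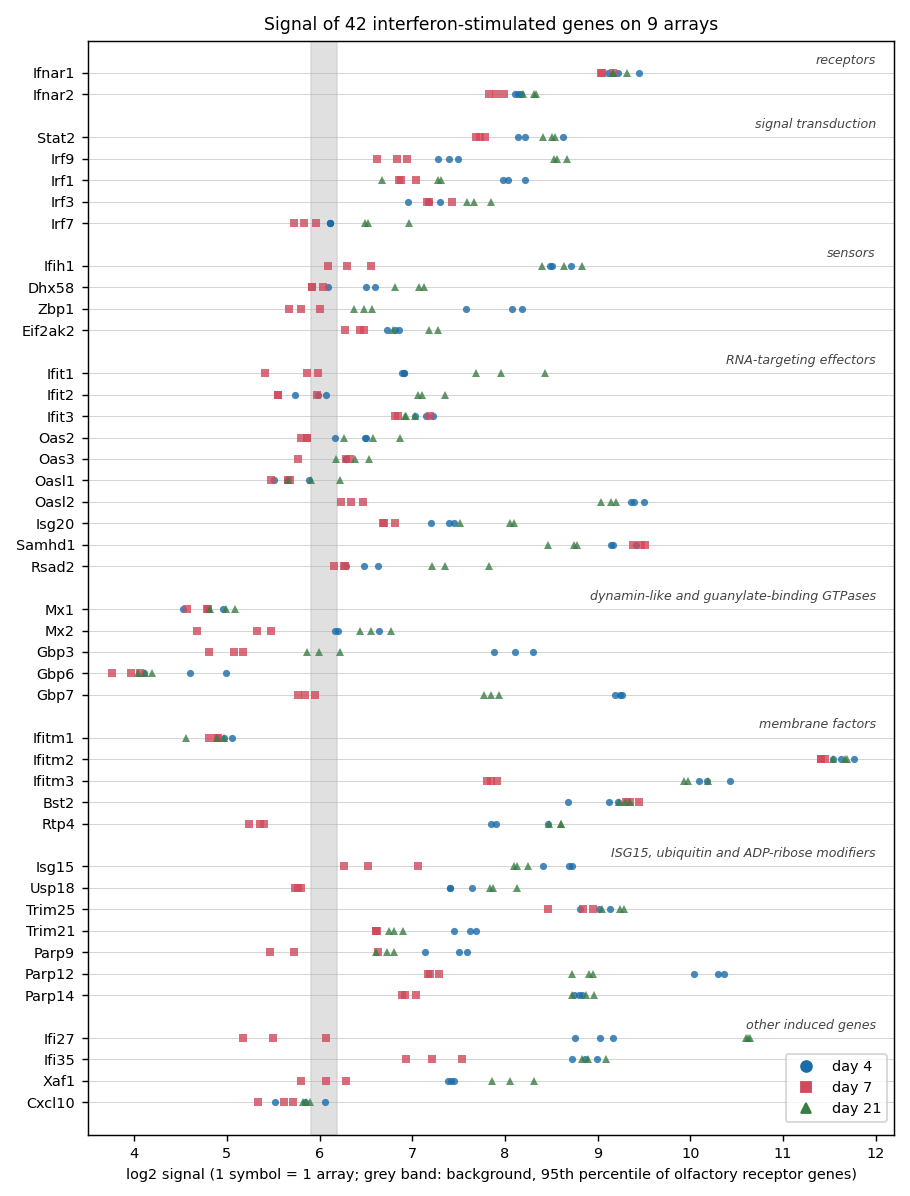
Log2 signal of each of the 42 measured genes (rows, grouped by role) on each of 9 arrays, with circles for day 4, squares for day 7, triangles for day 21 and a grey band for the background range of 5.91 to 6.19. For genes such as Oasl2, Ifitm3 and Parp14 the day 7 squares lie well to the left of the other days, while the rows of Ifitm2, Ifit3, Mx1 and Cxcl10 show no such gap.

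The receptor genes changed little. Ifnar1, a subunit of the type I interferon receptor, was 9.26 ± 0.17 at day 4, 9.08 ± 0.07 at day 7 and 9.21 ± 0.09 at day 21 and was called in no comparison, with a day 7 against day 4 interval of -0.42 to 0.06. Ifnar2, the other subunit, gave 8.11, 8.14 and 8.17 on the day 4 arrays, 7.83, 7.90 and 7.99 at day 7 and 8.33, 8.31 and 8.19 at day 21. Its rise of 0.37 ± 0.09 (SE) from day 7 to day 21 passed (limma adjusted p = 0.0136) and the difference of -0.23 before it did not (adjusted p = 0.140). Without day 7 replicate 1 the rise was 0.33 and missed the threshold (adjusted p = 0.0549).

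Among the factors that carry the signal, Stat2 and Irf9, which act together in the factor that binds the response element, both fell and then rose. Stat2 (probe set 17238367) measured 8.14, 8.62 and 8.22 at day 4, 7.73, 7.69 and 7.78 at day 7, and 8.54, 8.51 and 8.41 at day 21. Irf9 (17300591) measured 7.40, 7.28 and 7.49, then 6.62, 6.94 and 6.84, then 8.66, 8.53 and 8.56. The 3 days of Irf9 did not overlap, whereas days 4 and 21 of Stat2 did. Each fell by 0.59 on the log2 scale at day 7 (SE 0.13 for Stat2 and 0.11 for Irf9). Stat2 then rose by 0.75 ± 0.13 and Irf9 by 1.79 ± 0.11, which took Irf9 to 2.29-fold its day 4 signal (limma adjusted p = 1.95e-05).

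The interferon regulatory factors took different courses. Irf1, a transcription factor induced by both interferon types, measured 7.98, 8.03 and 8.22 at day 4 and 7.04, 6.87 and 6.85 at day 7, where it had dropped by 1.16 (adjusted p of 7.75e-04 by limma). At day 21 it measured 6.68, 7.27 and 7.31, all below the day 4 arrays and overlapping those of day 7. Irf3, a factor present before induction that switches on interferon genes, was 7.14 ± 0.17 at day 4, 7.26 ± 0.15 at day 7 and 7.70 ± 0.13 at day 21. It rose by 0.45 ± 0.12 in the second interval, a call that was lost without day 7 replicate 2 or 3 or day 21 replicate 1 or 2 (log2 differences of 0.41, 0.40, 0.46 and 0.37, adjusted p from 0.0532 to 0.0929). Irf7, its inducible relative, gave 6.11 on all 3 day 4 arrays, then 5.84, 5.72 and 5.96, then 6.52, 6.49 and 6.97. It was above background only at day 21, after a rise of 0.82 ± 0.13.

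The equal day 4 values of Irf7 are a property of the deposited table: 8 of the 42 genes (19.0%) and 8670 of all genes (39.1%) had the same value to 4 decimals on 2 or more arrays. The SD of such a gene understates its spread on that day, while the model's errors draw on all 9 arrays.

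Of the 4 sensor genes, Ifih1 and Zbp1 fell at day 7 and all 4 rose by day 21. Ifih1 (17385797) encodes MDA5, the sensor of long double-stranded RNA. It measured 8.50, 8.49 and 8.71 at day 4, 6.55, 6.29 and 6.09 at day 7, and 8.63, 8.83 and 8.40 at day 21. The day 7 arrays lay about 2 log2 units below the others, and the outer days overlapped: the fall was 2.25 and the rise 2.31 ± 0.15 (adjusted p of 3.74e-06 and 1.75e-06). Zbp1 (17395079), a sensor of Z-form nucleic acid, measured 7.58, 8.07 and 8.18, then 5.79, 5.67 and 6.004, then 6.48, 6.56 and 6.37. It fell by 2.12 and regained 0.65 ± 0.16, so that day 21 stood between the other days without overlap. Without day 7 replicate 2 that rise was 0.57 with an adjusted p of 0.0536.

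The other sensors moved less. Dhx58, the LGP2 helicase that tunes RNA sensing, was 6.40 ± 0.27, 5.96 ± 0.07 and 7.00 ± 0.17 on the 3 days. Eif2ak2, the kinase PKR, which halts translation on binding double-stranded RNA, was 6.80 ± 0.07, 6.40 ± 0.11 and 7.08 ± 0.26. Their day 7 differences from day 4, -0.44 and -0.40, did not pass (limma adjusted p of 0.0715 and 0.0798), but did pass without day 4 replicate 1 for Dhx58 (-0.59, adjusted p = 0.0139) and without day 21 replicate 3 for Eif2ak2 (-0.40, adjusted p = 0.0201). Both also passed when only genes above background on a day were tested, and Eif2ak2 when only the 6 arrays compared were fitted. Their rises by day 21, of 1.05 ± 0.14 and 0.68 ± 0.13, did pass. Without day 21 replicate 3, Eif2ak2 was also called higher at day 21 than at day 4 (0.43, adjusted p = 0.0127).

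Among 10 measured effectors that act on RNA or nucleotides, 4 fell at day 7, 0 rose and 6 did not pass; by day 21, 6 rose, Samhd1 fell and 3 did not pass. Oasl2 (17441037), a relative of the 2′-5′ oligoadenylate synthetases, had the largest fall of these: 9.36, 9.39 and 9.49 at day 4 against 6.47, 6.33 and 6.23 at day 7, an 8.41-fold difference. It measured 9.04, 9.19 and 9.14 at day 21, a rise of 2.78 ± 0.10 (limma adjusted p = 3.91e-08). All day 21 arrays stayed just under all day 4 arrays, at a difference of -0.29 (interval -0.51 to -0.07) that missed the threshold (adjusted p = 0.0522).

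The other synthetases were dim. Oas2, which makes the oligoadenylates that activate RNase L, measured 6.17, 6.50 and 6.49, then 5.87, 5.80 and 5.87, then 6.26, 6.58 and 6.87. Its fall of 0.54 had an adjusted p of 0.0415. The call was lost without day 4 replicate 2 or 3 (-0.49 in each case), day 7 replicate 1, 2 or 3 (-0.56, -0.52 and -0.55) or day 21 replicate 2 (-0.54), with adjusted p from 0.0613 to 0.139. Oas3, another synthetase, was 6.28 ± 0.00, 6.13 ± 0.32 and 6.36 ± 0.18, and Oasl1, a repressor of Irf7 translation, was 5.68 ± 0.19, 5.61 ± 0.12 and 5.93 ± 0.28. Neither was called, and Oasl1 was below background on all days.

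The 3 Ifit genes of the set, grouped here with the effectors that act on RNA, did not move together. Ifit1 (17358832) measured 6.92, 6.91 and 6.89 at day 4, 5.41, 5.86 and 5.98 at day 7, and 7.96, 8.43 and 7.69 at day 21. It fell by 1.15 (limma adjusted p = 0.00228) and rose by 2.27 ± 0.19, ending 2.17-fold above day 4 with no overlap between any of the days. Ifit2 (17358815) was near background at first, at 5.99, 6.06 and 5.73 and then 5.55, 5.97 and 5.55, and rose by 1.48 ± 0.15 to 7.36, 7.06 and 7.10. Ifit3 (17358821) measured 7.03, 7.22 and 7.14, then 6.85, 6.81 and 7.19, then 6.92, 7.03 and 6.93. It was not called, with intervals against day 4 of -0.44 to 0.08 at day 7 and -0.43 to 0.09 at day 21. Whether the changes of these 3 genes differ from each other was not tested. Ifit1 and Ifit3 both carry 2 matches to the response element core in the stretches printed above.

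Isg20, a 3′-5′ exonuclease, measured 7.45, 7.40 and 7.20, then 6.68, 6.69 and 6.81, then 7.52, 8.05 and 8.09. Its fall was 0.62 (adjusted p = 0.0207) and its rise 1.16 ± 0.15. The fall was not called without day 4 replicate 1 or 2 (-0.57 and -0.60) or day 7 replicate 1 or 2 (-0.60 in each case), with adjusted p from 0.0646 to 0.0775. Rsad2, the antiviral enzyme viperin, was 6.46 ± 0.17, 6.23 ± 0.07 and 7.46 ± 0.32, and only its rise of 1.23 ± 0.16 and its net gain of 0.997 ± 0.16 passed. Samhd1, which depletes deoxynucleotides, went against the set: 9.42, 9.14 and 9.16 at day 4, 9.47, 9.51 and 9.38 at day 7, and 8.75, 8.77 and 8.47 at day 21. It was the only gene of the set to fall after day 7, by 0.79 in log2 signal (adjusted p of 6.66e-04 by limma), in every leave-one-out fit as well.

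**Figure D2:**
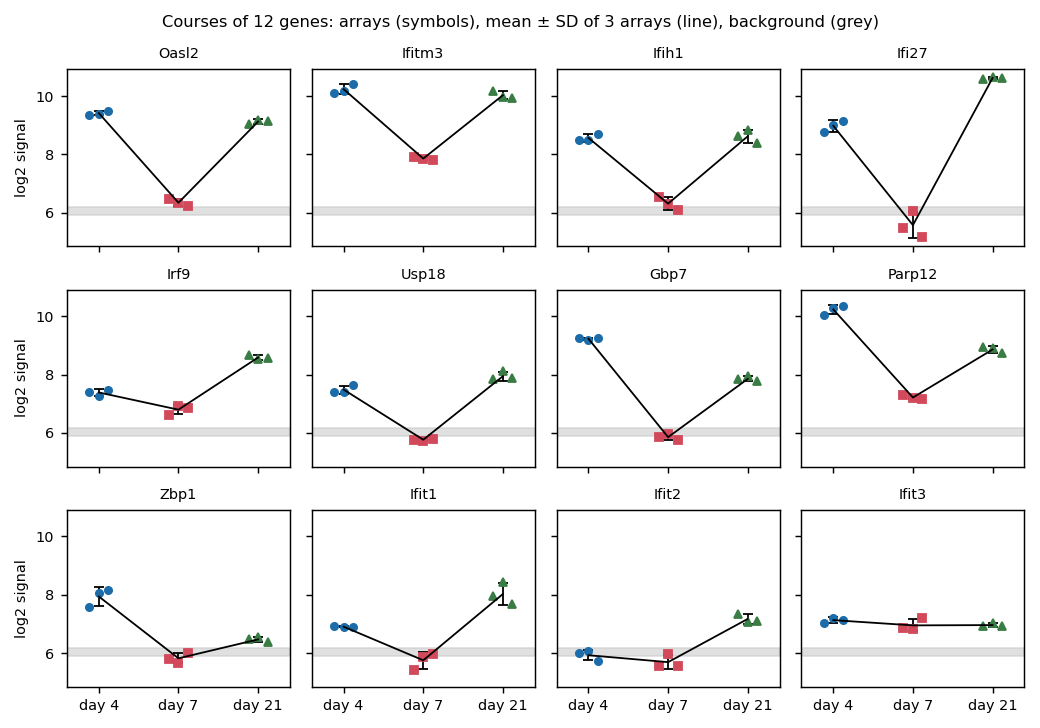
Log2 signal at days 4, 7 and 21 for 12 of the genes, with symbols for the 3 arrays of a day, lines and bars for their mean ± SD and a grey band for background. Ifitm3 and Ifih1 end near their day 4 level. Oasl2 ends just under its day 4 level, a difference not called in the main fit. Ifi27, Irf9 and Usp18 end above day 4, and Gbp7, Parp12 and Zbp1 end below it. Ifit1, Ifit2 and Ifit3 show 3 different courses.

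The guanylate-binding proteins, GTPases that attack the vacuoles of intracellular microbes, included some of the steepest falls of the set. Gbp7 (17403224) measured 9.26, 9.18 and 9.24 at day 4 and 5.84, 5.95 and 5.77 at day 7, a 10.4-fold difference with an adjusted p of 1.36e-08. At day 21 it measured 7.85, 7.94 and 7.77, so that after a rise of 1.996 ± 0.09 its difference from day 4 was -1.38 (interval -1.59 to -1.17). Gbp3 (17403237) measured 7.88, 8.11 and 8.30, then 4.80, 5.17 and 5.08, then 5.996, 6.22 and 5.86. It fell by 3.08 and rose by 1.01 ± 0.15 without coming above background at day 21. The days of each gene did not overlap, and both promoters carry the response element core shown above.

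Gbp6, of the same family, was below background on all days at 4.56 ± 0.45, 3.93 ± 0.15 and 4.12 ± 0.08 and was not called (adjusted p = 0.0537 at day 7). Without day 4 replicate 2 it was called lower at day 7 (-0.86, adjusted p = 0.00527) and at day 21 (-0.68, adjusted p = 0.00863) than at day 4. The dynamin-like GTPases Mx1 and Mx2 are hallmark antiviral genes that many laboratory mouse strains carry in defective form. Mx1 was below background throughout, at 4.76 ± 0.22, 4.72 ± 0.13 and 4.96 ± 0.14. Mx2 (17327557) measured 6.20, 6.64 and 6.17, then 5.48, 5.32 and 4.67, then 6.55, 6.44 and 6.77. Mx2 fell by 1.18 and rose by 1.43 ± 0.21, and its outer days overlapped.

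The membrane-acting genes split between bright steady genes and genes with a trough. Ifitm3 (17497718), which keeps viruses from fusing with endosomes, measured 10.10, 10.18 and 10.43 at day 4, 7.92, 7.85 and 7.81 at day 7, and 10.19, 9.97 and 9.93 at day 21. The fall of 2.38 and the rise of 2.17 ± 0.12 both passed (limma adjusted p of 4.87e-07 and 4.50e-07). Ifitm2 (17497713), its paralog on chromosome 7, measured 11.53, 11.62 and 11.76, then 11.41, 11.41 and 11.45, then 11.68, 11.66 and 11.53, and no comparison was called. The day 7 difference of Ifitm2 was -0.21 with an interval of -0.43 to 0.00, a range that does not reach the change of Ifitm3, although the difference between the paralogs was not itself tested. Ifitm1 was below background on all days, at 4.97 ± 0.08, 4.87 ± 0.06 and 4.81 ± 0.22.

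Rtp4 (17324446), a transmembrane chaperone of the Golgi that interferon induces, measured 7.85, 7.91 and 8.47, then 5.40, 5.24 and 5.36, then 8.61, 8.61 and 8.48. It fell by 2.74 and rose by 3.23 ± 0.15, the second largest rise of the set after Ifi27. Its net gain over day 4, 0.49 ± 0.15, had an adjusted p of 0.0351 and rested on few arrays. The gain was 0.38 and 0.41 without day 4 replicate 1 and 2, 0.49 without day 7 replicate 3, and 0.47, 0.47 and 0.53 without day 21 replicate 1, 2 and 3, with adjusted p from 0.05 to 0.129. Bst2, tetherin, which holds budding virus at the cell surface, was 9.01 ± 0.29, 9.37 ± 0.07 and 9.29 ± 0.06 and was not called in any comparison (adjusted p = 0.130 at day 7).

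Of 7 measured genes for ISG15, ubiquitin and ADP-ribose modification, 6 fell at day 7 and 5 rose by day 21. Isg15 (17434023), a ubiquitin-like protein attached to other proteins after induction, measured 8.41, 8.72 and 8.69, then 6.27, 6.52 and 7.06, then 8.12, 8.10 and 8.25. It fell by 1.99 and rose by 1.54 ± 0.18, and its day 21 arrays lay just under those of day 4 (-0.45, interval -0.85 to -0.05, adjusted p = 0.0902). Without day 7 replicate 3, the highest of its day, that net loss was called (-0.45, adjusted p = 0.0212). Usp18 (17462437), which removes ISG15 and damps the receptor, measured 7.41, 7.41 and 7.64, then 5.77, 5.73 and 5.80, then 7.84, 8.13 and 7.87. The feedback gene thus fell by 1.72, rose by 2.18 ± 0.11 and ended 0.46 ± 0.11 above day 4 (adjusted p = 0.0103), with no overlap.

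The ADP-ribosyltransferases measured in the set all fell. Parp12 (17466060) measured 10.04, 10.29 and 10.36, then 7.29, 7.19 and 7.16, then 8.95, 8.90 and 8.73: a fall of 3.02 and a rise of 1.65 ± 0.11 left a difference from day 4 of -1.37. Parp14 (17330099) measured 8.84, 8.80 and 8.75, then 6.89, 7.04 and 6.92, then 8.87, 8.96 and 8.72, a fall of 1.84 and a rise of 1.90 ± 0.10 with overlapping outer days. Parp9, which works with the ubiquitin ligase Dtx3l, measured 7.50, 7.14 and 7.59, then 5.47, 6.63 and 5.72, then 6.61, 6.73 and 6.80. Its fall of 1.47 passed (limma adjusted p = 0.00281), while its day 21 against day 7 difference of 0.77 ± 0.25 (0.0518) and net difference of -0.70 (0.0646) did not. Day 7 replicate 2 stood above the other day 7 arrays by nearly 1 log2 unit; without it the rise was called at 1.12 (adjusted p = 9.66e-04) and the net difference was called too (-0.70, adjusted p = 0.00466), as it was without day 7 replicate 1 (-0.70, adjusted p = 0.0399).

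The 2 listed TRIM ligases differed. Trim21, a cytosolic antibody receptor, measured 7.69, 7.45 and 7.63, then 6.60, 6.62 and 6.61, then 6.90, 6.75 and 6.80, and its fall of 0.97 was followed by a difference of 0.21 that was not called (adjusted p = 0.170). Trim25, a ligase that acts with the sensor RIG-I, was 8.98 ± 0.16, 8.75 ± 0.25 and 9.19 ± 0.13. Its rise of 0.44 ± 0.14 had an adjusted p of 0.0492. It was not called without any 1 of the day 4 arrays (0.44 in each case), without day 7 replicate 2 or 3 (0.49 and 0.30) or without day 21 replicate 1 or 2 (0.42 and 0.39), with adjusted p from 0.0519 to 0.165.

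Among the remaining genes, Ifi27 had the deepest trough and the largest rise. Ifi27 (17278200), a small protein of mitochondrial and nuclear membranes, measured 8.75, 9.02 and 9.16 at day 4, 5.49, 6.06 and 5.17 at day 7, and 10.60, 10.64 and 10.62 at day 21. The rise of 5.04 ± 0.20 was 33.0-fold in signal from a level below background (limma adjusted p = 6.26e-08), and day 21 exceeded day 4 by 3.12-fold. Ifi35 (17256734), a cytoplasmic partner of Nmi, measured 8.72, 8.86 and 8.99, then 7.21, 6.93 and 7.53, then 8.83, 8.89 and 9.09, and Xaf1 (17252341), which binds the apoptosis inhibitor XIAP, measured 7.38, 7.45 and 7.41, then 6.07, 5.80 and 6.28, then 8.05, 8.32 and 7.86. Xaf1 ended above day 4 by 0.66 ± 0.15, while Ifi35 returned to an overlapping range. Cxcl10, a chemokine that draws T cells, was below background on all days at 5.81 ± 0.27, 5.55 ± 0.19 and 5.86 ± 0.04.

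The 23 genes that fell at day 7 reached 3 kinds of level by day 21. Above day 4 were 7 (30.4%): Ifi27, Irf9, Ifit1, Xaf1, Isg20, Rtp4 and Usp18. Below it were 6 (26.1%): Gbp3, Zbp1, Gbp7, Parp12, Irf1 and Trim21. Called neither way were 10 (43.5%): Stat2, Ifih1, Oas2, Oasl2, Mx2, Ifitm3, Isg15, Parp9, Parp14 and Ifi35. Among all 1435 genes that fell at day 7, 12.3% were higher than day 4 at day 21, 59.9% were lower and 27.7% were called neither way.

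A call of neither does not show a return. The tightest interval of that class was that of Parp14 (0.05, -0.16 to 0.27), and those of Ifih1 (0.06, -0.27 to 0.38), Ifi35 (0.08, -0.26 to 0.42), Stat2 (0.16, -0.13 to 0.44), Ifitm3 (-0.21, -0.46 to 0.05) and Oas2 (0.18, -0.16 to 0.52) also lay within 0.6 of day 4. That of Mx2 was wider (0.25, -0.21 to 0.72). For Oasl2, Isg15 and Parp9 the interval of the single gene lay below 0 although the adjusted test was not passed. These 3 were called lower with arrays centred on their medians, and also when only genes above background on a day were tested. Oasl2 was called lower with the trended robust prior too, Isg15 with the replicate block, and Isg15 and Parp9 when only the 6 arrays compared were fitted. Rtp4 was no longer above day 4 with centred arrays or in the fit of 6 arrays. With centred arrays Gbp6, below background on all days, joined both the genes that fell at day 7 and those below day 4.

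The class above day 4 also lost calls with single arrays left out. Isg20 ended 0.54 ± 0.15 above day 4 (adjusted p = 0.0216), and without day 4 replicate 3 or day 21 replicate 2 or 3 the gain was 0.46, 0.46 or 0.43 and not called. With the losses of Isg20 and Rtp4 described above, the class held 5 or 6 genes when any 1 array was left out. At least 2-fold above day 4 were 4 genes of the whole set, Ifi27, Ifit2, Irf9 and Ifit1, and at least 2-fold below it were Gbp3, Zbp1, Gbp7 and Parp12. Of all genes, 5.44% were called higher and 2.57% lower by at least 2-fold.

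**Figure D3:**
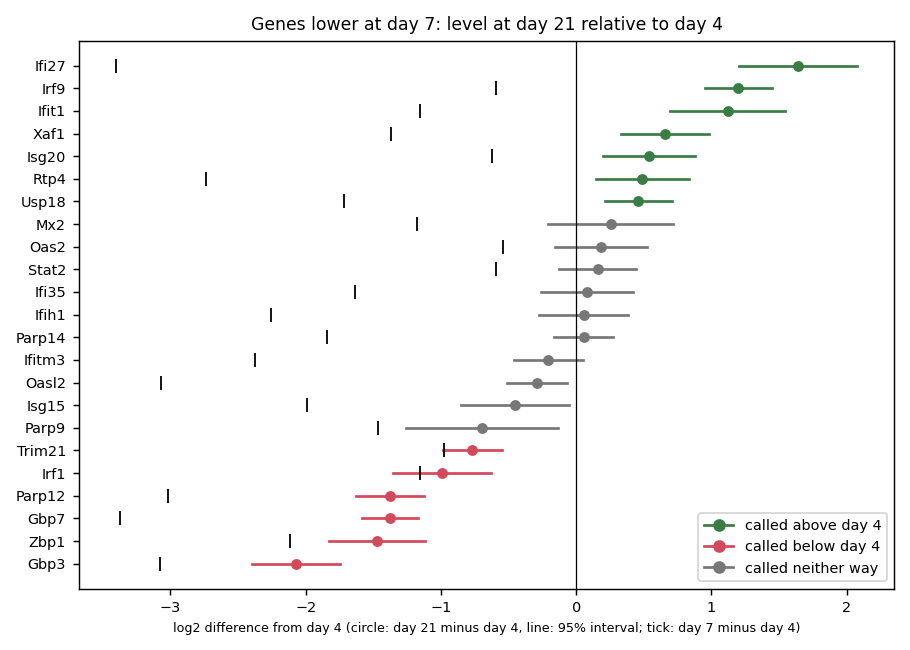
Log2 difference of day 21 from day 4 (circles with 95% intervals) for the 23 genes that fell at day 7, with black ticks for the day 7 difference from day 4. Genes run from Gbp3 at -2.07 to Ifi27 at 1.64; all black ticks lie left of 0 and the circles spread to both sides of it.

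Of the 19 genes that did not fall at day 7, Irf3, Irf7, Dhx58, Ifit2 and Rsad2 were above their day 4 level at day 21 and Samhd1 was below it. Ifnar2, Eif2ak2 and Trim25 rose only between days 7 and 21, and 10 genes were called in no comparison. Of these 10, 5 were below background on all days (Oasl1, Mx1, Gbp6, Ifitm1 and Cxcl10), so a change in them may not be measurable here. The other 5 (Ifnar1, Ifit3, Oas3, Ifitm2 and Bst2) were above background on at least 1 day.

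Other genes of the interferon system were taken from lists of known members. The reference for every list is the share of all genes, which was 6.98% higher and 6.47% lower at day 7. From day 7 to day 21 it was 12.4% higher and 10.7% lower, and net 15.0% higher and 14.1% lower. Of 77 other interferon-induced genes, 30 fell and 1 rose at day 7, and 34 rose and 0 fell from day 7 to day 21; net, 18 were higher and 16 lower than at day 4. At an unadjusted p under 0.05 in limma, 1 of them was lower at day 21 than at day 7. The largest day 7 falls were those of Gbp4 (-3.20 ± 0.19), Gbp8 (-2.85 ± 0.17) and the immunity-related GTPases Irgm2 (-2.57 ± 0.12) and Igtp (-2.52 ± 0.13). The largest rises by day 21 were those of the galectin Lgals9 (4.39 ± 0.14), Oas1g (3.10 ± 0.29), the helicase Ddx60 (2.70 ± 0.13) and Lgals3bp (2.60 ± 0.13). Oas1g and Ddx60 rose from below background. The guanylate-binding genes of this list varied. Gbp4 stayed at 5.76 on both later days after 8.95 at day 4, and the day 21 against day 4 differences of Gbp8, Gbp9 and Gbp11 were -2.24, -1.36 and -1.19, all called. Gbp5 was below background on all days (4.14 ± 0.10, 4.05 ± 0.20 and 4.31 ± 0.20) and was called in no comparison. Gbp5, Gbp9 and Gbp11 are named for their family, after their values were seen, and Gbp11 was below background on all days. The largest net gains were those of Lgals9 (2.51) and Lgals3bp (2.28). The only called rise at day 7 was that of Ifi30, a lysosomal thiol reductase (1.64 ± 0.12).

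Of 21 antigen presentation and immunoproteasome genes, 12 fell and 0 rose at day 7, 8 rose and 0 fell by day 21, and net 9 were lower and 1 higher than at day 4. These net shares were 42.9% and 4.76%, against 14.1% and 15.0% of all genes. At an unadjusted p under 0.05 in limma, 1 was higher at day 7 and 1 lower from day 7 to day 21. Erap1, a peptide-trimming enzyme (-2.61 ± 0.14), and the immunoproteasome subunits Psmb10 (-2.40 ± 0.12), Psmb9 (-2.29 ± 0.12) and Psmb8 (-2.15 ± 0.12) fell most. Tap1, a peptide transporter, rose by 1.603 ± 0.14, Erap1 by 1.32 ± 0.14, B2m by 1.25 ± 0.13 and Psmb9 by 1.05 ± 0.12. The largest net differences at day 21 were those of Psmb10 (-1.92), Psmb8 (-1.88), Erap1 (-1.29) and Psmb9 (-1.24).

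Nucleic acid sensing genes had a smaller share of falls, with 6 of 18 lower and 1 higher at day 7, and 7 higher and 3 lower from day 7 to day 21. Net, 3 were higher (16.7%) and 4 lower (22.2%) than at day 4, against 15.0% and 14.1% of all genes. The largest called net differences were those of Sting1 (1.57), Rnaseh2b (-1.11), Tlr3 (0.83) and Ripk3 (-0.63). Tlr3, the endosomal receptor of double-stranded RNA, fell by 2.44 and rose by 3.27 ± 0.13, from 8.72 ± 0.14 over 6.28 ± 0.10 to 9.55 ± 0.23. Ddx58, which encodes RIG-I, fell by 0.87 and rose by 1.30 ± 0.15, and Unc93b1, a chaperone of endosomal Toll-like receptors, fell by 0.61. The adaptor Ticam1 rose by 0.67 ± 0.15 at day 7. By day 21 Sting1, the adaptor of cytosolic DNA sensing, rose by 1.99 ± 0.18 and Rnaseh2b fell by 0.80. Sting1 was below background at day 4 (5.43 ± 0.34) and day 7 (5.01 ± 0.24).

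Upstream receptors and kinases were mostly called between days 7 and 21. Of 11 genes for other receptors, JAK kinases, STAT and IRF factors, 1 rose and 0 fell at day 7, where 6.98% and 6.47% of all genes did, while 8 rose and 0 fell by day 21 and 9 ended above day 4. At an unadjusted p under 0.05 in limma, 1 was lower at day 7 and 0 were lower from day 7 to day 21. The riser at day 7 was Ifnlr1, the type III receptor (0.62 ± 0.12), which was not above background at day 4 (5.53 ± 0.16) or day 7 (6.16 ± 0.06). By day 21 Irf2 rose by 1.33 ± 0.17, Il10rb by 1.32 ± 0.14, and the type II receptor genes Ifngr2 and Ifngr1 by 1.18 ± 0.13 and 1.11 ± 0.15. Their net gains over day 4 were 1.45 for Ifngr2, 1.43 for Il10rb, 1.30 for Ifngr1 and 1.07 for Ifnlr1. Of 15 negative regulators, among them Irf2 again, 5 fell and 1 rose at day 7, and 5 rose and 1 fell by day 21. Net, 4 were higher (26.7%) and 6 lower (40%), against 15.0% and 14.1% of all genes, led by Irf2 (0.90), Trim28 (-0.83), Rnf125 (0.66) and Pias1 (0.64). Socs1, an inhibitor of JAK kinases, fell by 0.80 at day 7 (adjusted p of 9.63e-04 by limma), as did Cyld (by 0.64), Trim28 (by 0.45) and Pias3 (by 0.40). After Irf2, the rises were those of Rnf125 (1.001 ± 0.17), Tnfaip3 (0.47 ± 0.12), Pias3 (0.44 ± 0.10) and Pias1 (0.32 ± 0.09), and Trim28 fell by a further 0.37.

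Of 19 interferon genes, 0 were called by limma at day 7 against day 4, with 1 lower at an unadjusted p under 0.05. Ifnb1, which encodes interferon beta, was below background at 3.97 ± 0.09, 3.86 ± 0.09 and 3.65 ± 0.25. The brightest, Ifna1 and Ifnl2, were 7.77 ± 0.16 and 7.57 ± 0.15 at day 4 and were called in no comparison. From day 7 to day 21 Ifnk, interferon kappa, rose by 1.97 ± 0.19 to 5.74 ± 0.36, still below background, and Ifna14 fell by 0.42. Net, 1 was higher and 0 lower. The interferon alpha genes are near-identical copies, so their probe sets may not tell them apart.

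**Figure D4:**
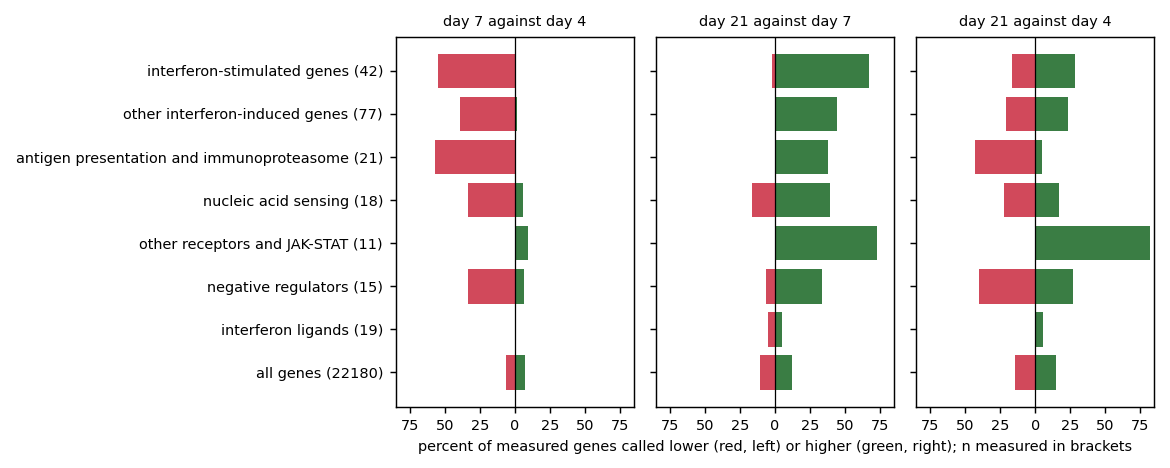
Percent of measured genes called lower (red, to the left) or higher (green, to the right) in each of the 3 comparisons, for the interferon-stimulated genes, 6 other lists of the interferon system and all 22180 genes, with the number measured in brackets. At day 7 the red bars of the 42 interferon-stimulated genes (54.8%) and of antigen presentation genes (57.1%) reach far past that of all genes (6.47%), and receptor and ligand lists have none.

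Markers of cell types moved between the same days, and their part in the trough was not tested. Afp, the gene behind the sort, is itself 1 of the visceral endoderm markers. Of all genes, 6.98% rose and 6.47% fell at day 7, and 12.4% rose and 10.7% fell by day 21. Of 8 visceral endoderm markers, 8 rose at day 7, and 7 fell and 1 (Afp) rose by day 21, opposite to the interferon-stimulated genes, with a mean signal of 6.82 to 6.85 on the day 4 arrays, 10.51 to 10.57 at day 7 and 9.46 to 9.62 at day 21. Of 5 epiblast and streak markers, 4 fell at day 7 and 5 by day 21 (9.36 to 9.52, 7.53 to 7.64 and 5.46 to 5.92), without the later rise. Of 8 fibroblast markers, 2 fell at day 7 and 7 rose by day 21 (6.78 to 6.84, 6.29 to 6.45 and 9.04 to 9.92). Pdgfra and Pdgfrb were the 2 with both changes. The largest rises were those of Dcn (6.84 ± 0.26), Lum (4.77 ± 0.29), Col1a1 (3.80 ± 0.25) and Postn (3.71 ± 0.29), which were not called at day 7.

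Of 14 leukocyte markers, 1 rose and 1 fell at day 7 (7.14% each, near the shares of all genes) and 3 rose by day 21 (mean signal 5.65 to 5.70, 5.70 to 5.81 and 6.13 to 6.34). These were Cd14 (3.48 ± 0.21), Laptm5 (1.52 ± 0.29) and Csf1r (1.51 ± 0.11). Net, 4 were higher and 1 lower than at day 4, against 15.0% and 14.1% of all genes. Cd68 was above background on all days (8.36 ± 0.19, 9.26 ± 0.17 and 9.36 ± 0.12) and was the marker that rose at day 7. Nkg7 was also above background on all days (7.19 ± 0.09, 6.62 ± 0.25 and 6.46 ± 0.25). It was the marker that fell at day 7 and the one lower at day 21 than at day 4. Ptprc, Cd53, Tyrobp and Fcer1g were among those below background on all days. Of the 14, 2 were above background at day 4, 2 at day 7 and 5 at day 21. Of 4 markers of plasmacytoid dendritic cells, a main source of type I interferon, Siglech and Flt3 were below background on all days. Irf8, also counted with the other receptors and factors, rose by day 21, and Tcf4, which other cells also express, fell and rose. The mean of these 4 was 6.27 to 6.42, 6.06 to 6.22 and 6.37 to 6.55. Bst2, also a marker of these cells, was counted only in the interferon-stimulated set and was above background on all days (9.01 ± 0.29, 9.37 ± 0.07 and 9.29 ± 0.06). Of 7 endothelial markers, 2 rose and 1 fell at day 7 and 3 fell by day 21 (5.93 to 6.09, 6.09 to 6.26 and 5.56 to 5.74). Of 8 pluripotency markers, 1 rose and 2 fell at day 7 and 1 rose and 2 fell by day 21 (6.28 to 6.72, 6.47 to 6.55 and 6.26 to 6.51). The 2 measured erythroid markers were below background on all days (4.89 to 5.18, 4.92 to 4.96 and 4.81 to 4.89). Of 6 hepatocyte markers, 2 rose at day 7, and 2 rose and 2 fell by day 21 (5.36 to 5.64, 6.45 to 6.62 and 7.44 to 7.60). Ttr, which rose and then fell, stands in both this list and that of visceral endoderm markers.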

How the data were processed

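Each day had 3 arrays, 9 in all. Nothing in the labels ties them to separate cultures, so the p-values rest on a spread between arrays that may be technical only. The authors' log2 values, 1 per probe set and array, were analysed as deposited. The submitters' processing notes name RMA and Affymetrix Expression Console, without versions or a genome build. RMA brings arrays to a common distribution, so a shift of all genes together would be largely removed. Per the labels' protocols, RNA was amplified with a kit for very small inputs, which can distort ratios of dim transcripts. The number of arrays limits the precision.

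Of 34365 probe sets, 23521 carried 1 gene symbol, 1814 several and 9030 none here, and 23328 were matched by Entrez number to RefSeq, which changed 0 symbols. The brightest probe set per gene left 22180 genes. The model, 1 mean for each day over the 9 arrays, was fitted by lmFit and eBayes of limma 3.58.1 (R 4.3.3), with two-sided tests, and the script was tested on simulated data. Alternatives were the mean of probe sets, median-centred arrays, a background filter, a trended robust prior, fits of 6 arrays, a replicate block, a 2-fold minimum and leaving out each array. All measured genes of the set are named; values on every array are given for those with the 8 largest changes of a comparison or called in both intervals, and for at least 1 gene of each role. Up to 4 called genes with the largest changes, or 2 of the brightest, are named per other list of the interferon system. Cell type marker lists are given as counts and mean signals, and the single markers named from them do not follow that rule. The genes, lists and background reference were chosen with earlier results of these data known.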

Additional observations from a re-analysis of the deposited data

How the results depend on the processing

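No call of the 42 genes turned direction in any alternative. The fall of 23 genes at day 7 held as 23 to 25 under the alternatives other than the 2-fold minimum. Of all genes, 6.35% to 14.5% fell in those settings, and the 14.5% came with the background filter, which tested 37 of the 42. With 1 array left out, 21 to 24 fell, against 4.51% to 7.39% of all genes. The 2-fold minimum left 18 genes, against 1.36% of all genes. Rises from day 7 to day 21 numbered 25 to 29 (20 with the 2-fold minimum, against 4.64% of all genes) and 26 to 28 with 1 array left out. With each array centred on its median, genes lower at day 21 than at day 4 numbered 11 in place of 7, and those of them that fell at day 7 in that setting numbered 10 in place of 6. The share of all genes lower at day 21 than at day 4 was 20.8% in that setting, in place of 14.1%. The 2-fold minimum left 4 genes higher and 4 lower at day 21 than at day 4, against 5.44% and 2.57% of all genes. It left 2 above day 4 among the genes that had also fallen that far at day 7. With it, 0 were lower at day 21 than at day 7, against 1.80% of all genes. With 1 array left out, genes higher at day 21 than at day 4 numbered 10 to 12, against 12.9% to 14.6% of all genes. Those lower numbered 7 to 8, against 11.2% to 13.6%. Of the day 7 fallers in these fits, 5 to 6 stood above day 4, 6 to 7 below it and 8 to 12 neither way. The genes higher at day 7 numbered 0 in every leave-one-out fit, against 5.30% to 7.43% of all genes. The genes lower at day 21 than at day 7 numbered 1 in every such fit, against 8.16% to 10.6%. Uncalled net differences near 0 changed sign on centring for Ifih1 (-0.055), Parp14 (-0.056) and Ifi35 (-0.030), and for Ifih1 with 1 array left out (-0.050 without day 21 replicate 2, to 0.166 without day 21 replicate 3). The background filter left out 5 genes of the set.

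Arrays of different days with the same replicate number in their titles had correlations of deviations from -0.054 to 0.263 over 9 pairs, and those with different numbers from -0.176 to 0.074. The same-numbered pairs of days 7 and 21 were the highest (0.078, 0.139 and 0.263), a hint of pairing from the data and not the design, while those with day 4 were all below 0; the numbers were not taken to pair the arrays. With the replicate block, 24 genes fell at day 7, 27 rose by day 21, and 12 were higher and 8 lower at day 21 than at day 4; Eif2ak2 gained the day 7 call, Isg15 the net call, and Trim25 lost its rise. Dim genes limit what can be read: 5 of the 42 were below background on all days.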

Other observations

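Ifi35 had 2 probe sets with its symbol alone. The brighter (17256734) showed the trough, and the dimmer (17269908) lay between 5.67 and 6.04 on all 9 arrays, at the background level, with 5.83 on 5 of them. Using the mean of a gene's probe sets changed 0 calls among the 42 genes.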
